A study of Mus musculus with 6 samples.

Results

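The immunoglobulin heavy chain locus was followed in the kidneys of 3 female MRL/MpJ (MRL) mice and 3 female MRL/MpJ-Fas lpr/lpr (LPR) mice at 6 months of age. Its members were the non-control array probes placed on chr12:114490000-117260000 of the mouse genome build mm9 whose description names an immunoglobulin or whose gene name starts with Igh or ENSMUST. This gave 121 of the 56605 probes on the array. Of these, 17 probes started below base 114668000 and were taken as the constant region. The other 104 were variable and other segments, among them 102 probes for 97 variable segments of 16 families. All 97 segment names were found in the RefSeq gene list, where 5 (Ighv1-2, Ighv3-2, Ighv4-2, Ighv7-1 and Ighv7-3) are entered as pseudogenes. No member was named after a diversity or joining segment.

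Each mouse gave 1 array of total RNA from the kidney, without pooling, and all 6 arrays lay on 1 slide. Both groups share the MRL/MpJ background, and LPR mice carry the lpr mutation of the death receptor gene Fas on both chromosomes and develop lupus-like nephritis. The study asked which transcripts mark the clusters of immune cells that form beside renal vessels in these mice. A whole kidney was measured, so a higher signal from more cells of a type and a higher signal from more RNA per cell cannot be told apart.

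An antibody heavy chain gene is assembled in a developing B cell by joining 1 variable, 1 diversity and 1 joining segment upstream of the constant genes. The mu and delta constant genes come first, and class switch recombination later places a gamma, epsilon or alpha gene behind the same assembled segment. Membrane heavy chains form the B cell receptor, and plasma cells make the secreted forms in large amounts. On mm9 the locus is read on the minus strand, so the constant genes have the lowest coordinates, with alpha at the low end and mu nearest the variable segments.

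The array reports each transcript through a probe of 60 bases. The probes below lie in constant genes and are shown because each isotype result rests on 1 to 3 such stretches. They are given 5′ to 3′ as deposited, with mm9 positions on the minus strand and no base marked.
Ighm A_51_P485421, chr12:114659630-114659689: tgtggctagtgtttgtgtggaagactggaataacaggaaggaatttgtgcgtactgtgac
Ighd A_51_P266248, chr12:114654277-114654336: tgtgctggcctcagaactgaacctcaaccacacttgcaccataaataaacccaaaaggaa
Ighg3 A_55_P2118876, chr12:114597942-114598001: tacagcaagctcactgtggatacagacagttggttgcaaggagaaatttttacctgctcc
Ighg1 A_55_P2066173, chr12:114568594-114568653: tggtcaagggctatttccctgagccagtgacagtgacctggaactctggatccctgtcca
Ighg2b A_55_P2063283, chr12:114544738-114544797: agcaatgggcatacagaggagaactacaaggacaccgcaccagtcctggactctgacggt
Ighe A_55_P1985209, chr12:114509504-114509563: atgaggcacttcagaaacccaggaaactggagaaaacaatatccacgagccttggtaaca
Igha A_51_P509679, chr12:114496985-114497044: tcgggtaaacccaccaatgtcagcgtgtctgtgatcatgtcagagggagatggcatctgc

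Variable segments of a family resemble each other, and the next probes show how far. The pair from Ighv1-15 and Ighv1-23 agreed at 58 of 60 bases and the pair from Ighv14-1 and Ighv14-4 at 55, with the differing bases of the best ungapped match in capitals. The probes of Ighv8-5 and Ighv8-8, shown without capitals, belong to the family that differed most among LPR mice. Of the 102 segment probes, 6 matched a probe of another segment at 54 or more of 60 bases, so signals of close segments can be shared. Probes were compared only with each other, without gaps, and not with whole segments. The count therefore does not measure how far signals are shared.
Ighv1-15 A_55_P2142499, chr12:115895649-115895708: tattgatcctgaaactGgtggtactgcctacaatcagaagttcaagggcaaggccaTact
Ighv1-23 A_55_P2075510, chr12:116002746-116002805: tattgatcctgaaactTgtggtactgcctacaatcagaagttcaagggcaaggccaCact
Ighv14-1 A_66_P114032, chr12:115170238-115170297: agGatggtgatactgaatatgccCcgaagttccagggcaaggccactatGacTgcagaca
Ighv14-4 A_52_P53507, chr12:115414722-115414781: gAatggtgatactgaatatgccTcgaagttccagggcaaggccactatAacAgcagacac
Ighv8-5 A_55_P2133907, chr12:116305943-116306002: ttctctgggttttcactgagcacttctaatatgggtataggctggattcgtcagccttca
Ighv8-8 A_55_P2002744, chr12:116532287-116532346: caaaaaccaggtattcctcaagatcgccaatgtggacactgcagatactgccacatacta

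Levels below are log2 intensities minus the 75th percentile of the array, and a log2 change is the mean of 3 LPR mice minus the mean of 3 MRL mice, with its standard error (SE). Probes that stood well above background on 3 or more arrays entered a limma fit, and p-values were adjusted by Benjamini-Hochberg over all 39924 of them, with a threshold of 0.05. Between 69.6% and 73.5% of spots were well above background on each array and no spot was saturated. The kidney markers matched the label of the tissue: 9 of 9 were well above background on all arrays, with Umod, the uromodulin of the thick ascending limb, at 7.96 to 8.13 in MRL and 7.79 to 7.86 in LPR mice. The Fas probe A_55_P2091676 read -0.37, -0.28 and -0.06 in MRL mice and -0.49, -1.25 and -0.37 in LPR mice (log2 change -0.47, SE 0.24, adjusted p = 0.234 in limma). The other Fas probe, A_52_P73385, was not well above background on any MRL array and read -4.97, -5.80 and -5.41 in LPR mice. Only a lower bound can be given for it, at least 1.47-fold higher. Where these probes lie relative to the lpr mutation was not analysed here, so they do not check the genotype.

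Heavy chain locus probes were higher in LPR kidneys across the whole locus. Of 121 members, 105 could be tested and 16 were too dim. In LPR mice 96 were higher and 0 lower, and 9 did not pass. Among all tested probes of the array 6.53% were higher and 6.17% lower. The median log2 change of the 105 tested members was 5.14, a 35.2-fold rise, beside a median of -0.14 over all tested probes. Every LPR mouse exceeded every MRL mouse for 99 of the tested members, against 11.0% of all tested probes, and 88 members rose by at least 10-fold, against 1.09%. With normexp background correction the same 96 members were higher, but the median log2 change was 3.42 and 54 rose by at least 10-fold.

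Limiting the members to the 51 that were well above background on all 6 arrays gave 47 higher, 4 that did not pass and a median log2 change of 5.13. A further 12 members were well above background in all 3 LPR mice and in no MRL mouse, which gives only a lower bound for their rise. The 15 constant-region probes that rose changed by 1.54 to 6.14, and the 81 segment probes that rose by 1.42 to 6.86. The 6.14 belongs to an Igha probe that was well above background on no MRL array. The 6.86 belongs to Ighv1-53, which was not so on every MRL array. Among the 51 members well above background on all 6 arrays the largest change was 6.04. Over the tested segment probes, the median log2 change was 4.99 for the 20 nearest the constant genes and 5.31 for the 26 farthest away. Of the 26 segment probes nearest the constant genes 6 were too dim to test, against 0 of the 26 farthest away. Signals well above background on all 6 arrays were seen for 6 and 15 of them. The medians leave out the dim probes and position was not tested, so they do not show whether the rise depended on it.

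Ighm encodes the heavy chain of IgM, the first class a B cell makes. Its brightest probe, A_55_P2745508 (chr12:114658982-114659041), read 3.59, 3.17 and 1.83 in MRL mice and 6.67, 7.32 and 6.92 in LPR mice. The groups did not overlap, and the rise was 4.11 (SE 0.44, adjusted p = 0.00143 in limma), or 17.2-fold. The probe shown above, A_51_P485421, rose by 4.29 (SE 0.38, adjusted p = 0.000588 in limma). The third Ighm probe, A_55_P2745692 (chr12:114656770-114656829), which is the farthest downstream, read -1.43, -1.27 and -0.40 in MRL mice and 1.58, 2.02 and 1.69 in LPR mice. Its rise was 2.79 (SE 0.28, adjusted p = 0.00101 in limma), or 6.94-fold. Within each array the brightest probe exceeded this probe by 2.23 to 5.02 in MRL mice and by 5.09 to 5.31 in LPR mice, and no test was run on that difference. As background, the exons for the membrane end of a heavy chain lie downstream of the secreted end. Which form each probe reads was not analysed here.

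Ighd, the heavy chain of IgD, is made together with Ighm by mature B cells that have not switched class. The brighter Ighd probe, A_55_P2734227 (chr12:114644823-114644882), read -5.09, -4.92 and -5.05 in MRL mice and -2.41, -3.05 and -2.22 in LPR mice. It rose by 2.46 (SE 0.22, adjusted p = 0.000562 in limma), or 5.49-fold. A_51_P266248 rose by 2.43 (SE 0.15, adjusted p = 0.000129 in limma), or 5.39-fold. The 2 probes thus gave nearly the same change, the smallest of any isotype with a tested probe. Both were dim in MRL mice, where A_51_P266248 read -5.44, -5.24 and -5.76. The lowest signals well above background on these arrays were -5.88, -6.01 and -5.97. How far the dim signals limit the rise of Ighd was not tested.

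The gamma genes encode the IgG subclasses. Ighg1 (A_55_P2066173) read -2.10, -0.86 and -0.22 in MRL mice and 3.97, 4.98 and 5.32 in LPR mice, a rise of 5.82 (SE 0.53, adjusted p = 0.000657 in limma) or 56.3-fold. Ighg2b (A_55_P2063283), the only member printed in 10 spots per array, read -1.40, 0.02 and 1.33 in MRL mice and 4.52, 5.36 and 4.49 in LPR mice. It rose by 4.80 (SE 0.64, adjusted p = 0.0041 in limma), and with the slide row as a block the change of 4.53 did not pass. In both genes the lowest LPR mouse was well above the highest MRL mouse.

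Ighg2c was read by 3 neighbouring probes that did not behave alike. A_55_P1956598 (chr12:114525496-114525555) read 1.64, 2.20 and 3.36 in MRL mice and 6.79, 7.89 and 6.92 in LPR mice, a rise of 4.80 (SE 0.48, adjusted p = 0.000997 in limma). A_55_P2034655 (chr12:114525600-114525659) rose by 4.72 (SE 0.42, adjusted p = 0.000567 in limma). The third, A_51_P311235 (chr12:114525673-114525732), was well above background on 0 of 6 arrays, at -8.00 to -7.55 in MRL mice and -7.29 to -5.92 in LPR mice. Why it stayed dim was not tested.

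Ighg3 had the widest spread of the gamma genes, and the spread was in MRL mice. A_51_P290619 read -2.68, 2.17 and 0.90 in MRL mice and 5.34, 5.92 and 4.37 in LPR mice. Its 60 bases span chr12:114596396-114597927, so the sequence joins stretches that lie apart in the genome. Which form of the chain this probe reads was not analysed here. The probe rose by 5.08 (SE 1.16, adjusted p = 0.0341 in limma). A_55_P2118876 read -3.43, 1.75 and 0.56 in MRL mice and 5.06, 5.61 and 3.97 in LPR mice, a rise of 5.25 (SE 1.25, adjusted p = 0.0389 in limma). Both probes put MRL 1 far below the other MRL mice, and both lost the threshold without MRL 3, LPR 1, LPR 2 or LPR 3, with log2 changes of 4.73 to 5.72. They kept it without MRL 1 or MRL 2.

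Igha, the heavy chain of IgA, gave the highest constant-gene signal on these probes, though levels of different probes are not amounts of transcript. A_51_P509679 read 3.24, 4.74 and 4.56 in MRL mice and 8.34, 8.83 and 8.71 in LPR mice, a rise of 4.44 (SE 0.39, adjusted p = 0.000547 in limma) or 21.7-fold. The other probe, A_65_P05991 (chr12:114493535-114493594), was well above background on no MRL array and read -1.82, -1.62 and -2.03 in LPR mice, at least 17.5-fold higher. A pair of probes beside Igha carry the name Igh-VJ558, an older name for variable segments, although the array places them at the constant genes. A_55_P2214124 (chr12:114498348-114498407) rose by 5.80 (SE 0.41, adjusted p = 0.000219 in limma), and A_51_P270661 (chr12:114503159-114503217) by 1.54 (SE 0.15, adjusted p = 0.000774 in limma).

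Ighe, the heavy chain of IgE, was the only tested constant-region probe that did not pass. It read -6.25, -8.17 and -3.68 in MRL mice and -2.14, -3.20 and 2.01 in LPR mice. The groups did not overlap, but LPR 3 stood far above the other LPR mice, and the log2 change of 4.93 had an SE of 1.57 (adjusted p = 0.0876 in limma). Ighe was well above background on 1 of 3 MRL arrays.

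To see whether the isotypes moved in step, the brightest tested probe of each constant gene was set against the brightest Ighm probe on the same array. Ighd fell relative to Ighm, with differences of -8.68, -8.08 and -6.89 in MRL mice and -9.08, -10.37 and -9.14 in LPR mice. The groups did not overlap, and the change of -1.65 had the smallest p that 3 against 3 mice allow in an exact two-sided permutation test (p = 0.1, adjusted p = 0.7 over 7 genes). The other 6 genes overlapped between the groups. Their changes relative to Ighm were 0.34 for Igha, 0.70 for Ighg2c, 0.70 for Ighg2b, 0.82 for Ighe, 0.98 for Ighg3 and 1.71 for Ighg1, with exact p of 0.3 to 1.0. None of the 7 could pass the threshold in this design.

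These differences depended on which Ighm probe was the reference. With A_51_P485421, again Ighd alone did not overlap, at -1.83. With A_55_P2745692, the Ighm probe that rose least, the change of Ighd was -0.34 and its groups overlapped. Against that probe, Igha read 4.67, 6.01 and 4.96 in MRL mice and 6.76, 6.81 and 7.02 in LPR mice. Igha, Ighg2c, Ighg2b and Ighg1 then did not overlap, with changes of 1.65, 2.01, 2.01 and 3.02 (exact two-sided permutation p = 0.1 each, the smallest possible). All 7 changes kept their direction with each of the 3 reference probes.

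Relative to the brightest Ighm probe, MRL mice differed widely in several isotypes. Igha minus Ighm was -0.35 in MRL 1, 1.58 in MRL 2 and 2.73 in MRL 3, but 1.50 to 1.79 in every LPR mouse. The SD of this difference was 1.56 in MRL and 0.14 in LPR mice, and for Ighg2c it was 1.79 and 0.30. For Ighe (3.03 and 2.87) and Ighd (0.91 and 0.73) the groups spread more alike. With A_55_P2745692 as the reference the SD of Igha was 0.71 and 0.14, and that of Ighg2c 0.35 and 0.38. On the brightest probes MRL 1 had the highest Ighm and the lowest Igha and gamma signals of the MRL mice, and MRL 3 the lowest Ighm, whereas A_55_P2745692 was lowest in MRL 1 and highest in MRL 3. Without MRL 1, the changes of Igha, Ighg2c, Ighg2b and Ighg3 relative to Ighm turned negative, at -0.50, -0.051, -0.36 and -0.79, while those of Ighe (0.35), Ighg1 (0.82) and Ighd (-2.05) kept their direction. With A_55_P2745692 as the reference none of the 7 turned without MRL 1.

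Variable segments encode most of the antigen-binding part of the chain, and each B cell clone uses 1 of them. Of the 102 probes for named segments, 88 were tested, 81 were higher in LPR mice and 7 did not pass, with a median log2 change of 5.26, or 38.4-fold. In 11 of the 16 families at least 1 probe was tested. The single probes of Ighv11, Ighv12, Ighv13, Ighv15 and Ighv16 were well above background on too few arrays. The largest family, Ighv1, had 45 of 47 tested probes higher (median 5.38). All tested probes rose in Ighv14 (4 of 4, median 5.29), Ighv5 (7 of 7, median 5.13), Ighv7 (3 of 3, median 6.07) and Ighv8 (6 of 6, median 5.54). In Ighv7, however, 0 probes were well above background on all 6 arrays, and 2 of the 3 tested entered the fit through the LPR arrays alone. Passing adds nothing for those 2, and the Ighv7 median rests on dim MRL signals. In Ighv9 only 1 of 3 passed, Ighv9-3, which also entered through the LPR arrays alone.

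Among segments with no overlap and signals above background on all 6 arrays, the largest rise was in Ighv8-5, which is taken up below because LPR 3 stood above the other LPR mice. Next came Ighv1-85 (chr12:117238426-117238485), which read -4.38, -2.89 and -2.93 in MRL mice and 2.20, 3.36 and 2.08 in LPR mice. It rose by 5.95 (SE 0.49, adjusted p = 0.000428 in limma), or 61.6-fold. Ighv1-64 (chr12:116745936-116745995) read -4.30, -2.18 and -2.70 in MRL mice and 2.64, 3.63 and 2.26 in LPR mice, a rise of 5.90 (SE 0.58). The remaining 9 of the 12 largest rises, in Ighv1-22, Ighv1-55, Ighv1-67, Ighv1-7, Ighv1-5, Ighv14-3, Ighv1-52, Ighv1-4 and Ighv1-39, were between 5.40 and 5.70, each above 42-fold. Of these 12 segments, 10 belong to Ighv1, which held 24 of the 38 segment probes above background on all 6 arrays. A second probe of Ighv1-7 (A_66_P100146) rose by only 3.08 (SE 0.44), and a second probe of Ighv1-55 (A_55_P2140348) by 6.38 (SE 0.95). Neither was well above background on every MRL array. With the slide row as a block their changes of 2.67 and 6.25 did not pass.

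Ighv14-3 (chr12:115298056-115298115) had the highest segment signal in LPR mice and the smallest SE of these 12. It read -2.09, -1.76 and -1.17 in MRL mice and 3.64, 4.12 and 3.62 in LPR mice, a rise of 5.47 (SE 0.26, adjusted p = 3.7e-05 in limma). Ighv1-7 (chr12:115776734-115776793) followed with 3.23, 4.23 and 3.23 in LPR mice, and then Ighv1-77, Ighv1-52 and Ighv1-64. Over all members the largest fitted change was that of Ighv1-53 (chr12:116396734-116396793), at 6.86 (SE 0.92, adjusted p = 0.00414 in limma). Ighv1-53 was well above background on 1 of 3 MRL arrays, with -7.14, -3.96 and -7.18 in MRL mice and 0.54, 1.81 and -0.06 in LPR mice.

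For segments that were above background in all LPR mice and in no MRL mouse, the rise is a lower bound. The highest bounds were in Ighv5-16 (at least 37.2-fold), Ighv9-3 (at least 32.8-fold), Ighv1-84 (at least 27.4-fold), Ighv1-42 (at least 25.4-fold) and Ighv7-4 (at least 22.0-fold). Ighv7-2, a second probe of Ighv1-5 (A_66_P135402), Ighv1-54 and Ighv3-3 followed with at least 20.7-fold, 12.3-fold, 11.8-fold and 5.98-fold. These 9 passed the threshold, but they entered the fit through the LPR arrays alone, so passing adds nothing to the bounds. Ighv1-24 did not pass (at least 5.84-fold, adjusted p = 0.0776 in limma), and its LPR values were -0.61, -5.02 and -4.59.

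Of the pseudogenes, 4 of 5 were tested and all 4 rose: Ighv7-3 by 6.07 (SE 0.50), Ighv1-2 by 5.37 (SE 0.39), Ighv3-2 by 5.03 (SE 0.47) and Ighv4-2 by 4.28 (SE 0.52). Ighv7-1 was too dim to test. The adjusted p of these 4 in limma lay between 0.000226 and 0.00266. Ighv7-3, Ighv3-2 and Ighv4-2 were not well above background on every MRL array, so their changes rest partly on dim signals. Ighv7-3 read -5.93, -6.78 and -5.57 in MRL mice, where the lowest signals well above background were -5.88, -6.01 and -5.97. Probes on pseudogenes may share signal with the functional segments they resemble, which was not tested.

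Not every segment was higher. Ighv6-5 (chr12:115654927-115654986) was dim and level, at -5.74, -5.63 and -5.80 in MRL mice and -5.78, -5.65 and -5.68 in LPR mice (log2 change 0.02, SE 0.10, adjusted p = 0.922 in limma). Ighv10-3 passed with the smallest rise of the segments, 1.42 (SE 0.30, adjusted p = 0.0277 in limma), which did not pass when any 1 of the MRL mice was left out (1.38 to 1.47), while Ighv10-1 of the same family rose by 4.47. Gm9238 (chr12:116784353-116784412), a pseudogene that is no immunoglobulin segment, lies between variable segments and read 4.40, 4.50 and 4.52 in MRL mice and 4.05, 4.43 and 4.16 in LPR mice. Its log2 change was -0.26 (SE 0.13, adjusted p = 0.221 in limma).

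The other segments that did not pass differed widely among mice. Ighv1-63 (chr12:116733930-116733989) read -2.21, 1.21 and -2.75 in LPR mice against -3.61, -3.55 and -4.00 in MRL mice (log2 change 2.47, SE 0.95, adjusted p = 0.137 in limma). Ighv9-2 (chr12:115347272-115347331) read -6.03, -2.09 and -3.11 in LPR mice against -5.28, -5.94 and -5.46 (log2 change 1.82, adjusted p = 0.23 in limma). In Ighv9-4, LPR 1 at -5.03 was likewise within the MRL range of -5.18 to -4.60, with LPR 2 at -1.95. Ighv2-6 read -1.91, -5.37 and -3.71 in LPR mice against -6.98, -3.69 and -5.86 in MRL mice. Ighv3-1 read -5.95, -5.43 and -4.59 in LPR mice against -8.00, -4.93 and -8.11. In both, MRL 2 lay above 2 of the 3 LPR mice. Part of the spread of these 2 segments is among dim signals. MRL 1 in both, and MRL 3 in Ighv3-1, lay below the lowest signal well above background on the array (-5.88 and -5.97). LPR 1 was the highest mouse for Ighv1-24 and Ighv2-6, LPR 2 for Ighv1-63, Ighv9-2 and Ighv9-4, and LPR 3 for Ighv3-1. With the slide row as a block the log2 changes of Ighv9-2 and Ighv9-4 were -0.47 and -0.20.

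The range over the 3 LPR mice had a median of 1.34 log2 units over the 88 segment probes and 0.75 over the 16 constant-region probes, which were brighter. In MRL mice these medians were 1.33 and 1.56, and no test of segments against constant genes was run. Over the 37701 tested probes of the array that were above background in all LPR mice it was 0.326. A range above 1 was seen in 64 of the 88 segment probes (72.7%), against 3.96% of those probes. At like signal (mean LPR level -1.26 to 1.15), 33 of 44 segment probes and 239 of 8899 other probes (2.69%) had such a range. Across the 88 segment probes, which share arrays and partly sequence, Pearson's r between LPR mice was 0.78 to 0.81, and it was 0.94 to 1.00 across the 16 constant-region probes.

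Part of that range was a difference in level. LPR 2 was the highest LPR mouse for 55 of 88 segment probes and 13 of 16 constant-region probes, and the median segment level was -0.40 in LPR 1, 0.41 in LPR 2 and 0.03 in LPR 3. In MRL mice the median segment level was -5.60, -4.91 and -4.66, with MRL 1 lowest for 54 probes. Families also differed in which LPR mouse was highest, which was not tested. After the median departure of each mouse over all segment probes was taken out, the median departure of the Ighv8 family from the mean of the LPR mice was 2.29 in LPR 3 and -1.47 in LPR 1.

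Ighv8-5 read -4.78, -5.13 and -3.55 in MRL mice and -0.68, 1.22 and 4.12 in LPR mice. It rose by 6.04 (SE 1.13, adjusted p = 0.0168 in limma). Ighv8-8, read by 2 probes, was -0.85, 1.36 and 2.62 in LPR mice on A_55_P2002744 and -1.01, 0.79 and 2.91 on A_55_P2002745. Ighv8-12 (-1.08, 0.24 and 2.74) and Ighv8-2 (-3.17, -1.74 and 0.74) kept the same order of LPR mice, but Ighv8-13 (-3.02, -2.38 and -3.42) was lowest in LPR 3. In MRL mice, too, MRL 3 was the highest for Ighv8-5, Ighv8-2 and Ighv8-12. For Ighv8-2, MRL 1 and MRL 2 read -7.96 and -8.09, below the lowest signals well above background on their arrays (-5.88 and -6.01). Its order among MRL mice and its fitted changes therefore rest partly on background. Without MRL 1 or MRL 2 the adjusted p of Ighv8-5 no longer passed, with log2 changes of 5.89 and 5.72, and that of Ighv8-2 no longer passed without MRL 1 (log2 change 5.42). With the slide row as a block the calls of Ighv8-5 (3.81), Ighv8-2 (4.03), Ighv8-12 (3.17), Ighv8-13 (2.89) and Ighv8-8 on A_55_P2002745 (3.37) were lost. Row 1 of the slide held the MRL mice and LPR 1, and row 2 held LPR 2 and LPR 3.

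Other families had another leading mouse. The same departure of Ighv14 was 1.34 in LPR 1 and -1.41 in LPR 2, with Ighv14-1 at 1.50, -0.51 and 0.44, Ighv14-2 at 2.23, 0.28 and 1.38, and Ighv14-4 at 1.71, -0.87 and -0.19 in LPR mice. The 4th segment, Ighv14-3, did not follow this order. Ighv2 was highest in LPR 1 for 6 of 6 probes and Ighv7 in LPR 3 for 3 of 3, while Ighv1 was highest in LPR 2 for 40 of 47. The 3 Ighv9 probes were highest in LPR 2 and lowest in LPR 1. These are descriptions of 3 mice, and probes of a family partly share sequence.

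Base composition, which the rule did not use, had little relation to the change. The GC content of all members, constant-region probes included, ran from 35.0% to 56.7%. Its Spearman correlation with the log2 change over the 88 tested segment probes was -0.02. That of the start position was 0.22, and that of the mean LPR level, which enters the change itself, 0.46. These are descriptions over probes of the same arrays, without a test.

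The light chain constant genes, whose products pair with every heavy chain, rose alongside. Of 4 listed, 3 were tested and 3 were higher. Igkc read 3.17, 4.13 and 4.41 in MRL mice and 7.95, 8.51 and 8.57 in LPR mice, a rise of 4.44 (SE 0.34, adjusted p = 0.000277 in limma). Iglc1 rose by 5.98 (SE 0.44) and Iglc3 by 4.96 (SE 0.11). MRL 1 was the lowest MRL mouse for Igkc and Iglc1, as for Igha and the gamma genes, but the highest for Iglc3 (-0.56, -0.67 and -0.83 in MRL mice).

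Genes that transcribe, fold and export heavy chains were higher for 8 of 17 tested, lower for 0, and 9 did not pass, with a median log2 change of 0.42. Pou2af1, a coactivator of immunoglobulin promoters, rose by 5.28 (SE 0.35, adjusted p = 0.000164 in limma). Jchain, which joins IgM and IgA chains into polymers, read 0.85, 1.90 and 1.88 in MRL mice and 5.41, 6.41 and 6.28 in LPR mice, a rise of 4.49 (SE 0.37). Mzb1, a chaperone of heavy chains, rose by 4.35 (SE 0.31), Derl3 by 2.99 (SE 0.30), Pou2f2 by 2.40 (SE 0.19), Prdm1 by 2.15 (SE 0.16) and Sdc1 by 0.99 (SE 0.15). Tnfrsf17, the receptor for plasma cell survival signals, was at least 7.72-fold higher. The general chaperone Hspa5 (0.04, adjusted p = 0.89 in limma), Xbp1 (0.42, adjusted p = 0.284 in limma) and Pigr, the carrier of polymeric IgA across epithelium (-0.27, adjusted p = 0.582 in limma), did not pass, although another Pigr probe was higher. These are genes that kidney cells express as well.

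Plasma cell markers, which overlap with that list, were higher for 6 of 8, and their summed linear level was 31.9 to 46.7 in MRL and 80.5 to 153.6 in LPR mice. Most of the MRL sum was Xbp1, which kidney cells also express, at log2 levels of 4.86, 4.91 and 5.39 in MRL mice. B cell markers were higher for 4 of 8 tested and lower for 1, with a summed level of 1.79 to 1.96 in MRL and 4.62 to 5.84 in LPR mice. Fcrla was at least 6.33-fold higher. The brightest Ms4a1 probe fell by 0.70 (SE 0.18, adjusted p = 0.0497 in limma), whereas another Ms4a1 probe was higher. Of germinal centre markers 3 of 5 tested were higher, with Gcsam above background in LPR mice only, and a summed level of 3.77 to 5.40 in MRL and 4.24 to 6.84 in LPR mice. T cell markers (6 of 6, summed level 1.40 to 1.69 in MRL and 12.6 to 14.8 in LPR mice) and macrophage markers (5 of 5, 14.1 to 17.3 and 34.6 to 39.6) were also higher, and kidney markers were lower for 1 of 9, at 876.2 to 918.3 and 696.1 to 738.6. The part of these cell types in the heavy chain result was not tested.

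In the list for membrane immunoglobulin and B cell signalling, 6 of 12 tested genes were higher and 1 lower. Cd79b and Cd79a, the signalling chains of the B cell receptor, rose by 2.83 (SE 0.20) and 1.88 (SE 0.21), on either side of the rise of the brighter Ighd probe. The mean levels of Cd79b and Cd79a in MRL mice were -1.12 and -5.34. Changes of probes of such unlike brightness were not compared by a test. Syk rose by 2.95 and the brightest Lyn probe by 1.23, kinases that are also active in other immune cells, while the other tested Lyn probe was lower. Blnk, Cr2 and the brightest Cd22 probe did not pass, at 0.37, -0.04 and -0.03, and 1 other Cd22 probe was higher.

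In the list for class switch and hypermutation, 8 of 17 tested genes were higher and 1 lower. The T cell signal Cd40lg was too dim to test. Ifng, a cytokine linked to switching to IgG2 classes, rose at least 16.4-fold, and Tbx21, a transcription factor it induces, rose by 2.22 (SE 0.16). Irf4 rose by 3.43 (SE 0.36), Batf by 3.11 (SE 0.32) and Tnfrsf13b by 3.07 (SE 0.24). The repair genes Ung, Msh6 and Polh, which every cell uses, did not pass, with log2 changes of -0.35 to -0.04. The brightest Il21 probe fell by 0.90 (SE 0.19, adjusted p = 0.0258 in limma), and its other tested probe was higher.

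Genes of segment joining gave another pattern. Rag1, Rag2 and the surrogate light chain gene Igll1 were too dim to test, and of the 6 tested genes of this list only Vpreb3 was higher, by 2.54 (SE 0.28, adjusted p = 0.00179 in limma). Receptors that bind heavy chains were higher for 5 of 8 tested. Fcgr4 rose by 4.90 (SE 0.45), Fcgr1 by 4.23 (SE 0.20), Fcgr3 by 3.13 (SE 0.14), the shared chain Fcer1g by 3.07 (SE 0.35) and the IgM receptor gene Fcmr by 1.87 (SE 0.29). Fcgrt, the receptor that protects IgG from breakdown, did not pass, at 0.05 (SE 0.16).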

How the data were processed

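Per the labels and the study's methods, Cy3-labelled RNA from each kidney was hybridized to an Agilent mouse array, and RNA was isolated with Trizol (methods) or an RNeasy kit (labels). The authors deposited intensities from Agilent Feature Extraction 12.0.3.1, background-subtracted and not normalized between arrays, and a table of these intensities scaled by each array's 75th percentile. The authors selected genes by fold change and a test per gene on percentile-shifted values.

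Here control spots and 73 to 90 outlier spots per array were left out of 59305 spots. Intensities were taken to log2, the array's 75th percentile (706.1 to 941.7) was subtracted, and spots of a probe were averaged. Groups were compared in limma 3.58.1 (R 4.3.3) without a block. A lower bound sets the LPR mean against MRL signals raised to the lowest signal well above background on their array. Probes with such a bound entered the fit through LPR arrays alone, and their p-values rest on MRL signals not well above background. The number of arrays limits the precision, and where the labels do not say more, p-values measure the spread between these mice. Isotype differences used exact permutation in scipy 1.17.1. On simulated data with 39916 probes, limma recovered 145 of 200 changed probes, with 11 false calls.

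The members, lists and tests were chosen with earlier results of these data known. Members named are all constant-region probes and, among segments, the 12 largest rises and 5 largest falls (none fell), the 10 highest lower bounds, the 6 highest LPR levels and the 6 largest SDs over LPR mice. Ighv1-53, Ighv6-5, the pseudogenes and further family members were named after their values were seen. The brightest tested probe stands for each listed gene. mm9 annotation of exons and untranslated regions was not used here. Some listed genes are not reported here by name.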

Additional observations from a re-analysis of the deposited data

How the results depend on the processing

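Counts, medians, isotype differences and the change of each tested member were computed again under up to 19 alternatives (15 to 19 for a member), and counts also under the methods' test and with 1 probe per gene name. No alternative made any member lower in LPR mice past the threshold, and the count of higher members stayed within 1.5 times of 96 except with the filter on all 6 arrays, which left 51 members to test and gave 47 higher (35 of the segment probes). Leaving out 1 mouse gave 79 to 93 higher members, 12 to 15 higher constant-region probes, 67 to 79 higher segment probes and a median log2 change of 4.94 to 5.47. The median was 3.42 with normexp and 5.61 with the slide column as a block. Relative to Ighm, leaving out 1 mouse gave -0.50 to 1.04 for Igha, -0.76 to 2.51 for Ighe, -0.051 to 1.69 for Ighg2c, -0.36 to 1.88 for Ighg2b, -0.79 to 1.88 for Ighg3, 0.82 to 2.65 for Ighg1 and -2.05 to -1.15 for Ighd. Ighe relative to Ighm was -1.57 with normexp and -0.024 with the floor at the detection limit. Ighd relative to Ighm was -2.98 with normexp. With the slide row as a block, 71 members were higher, 26 lost their call, and Ighv9-2, Ighv9-4 and Ighv6-5 changed by -0.47, -0.20 and -0.055. Row 2 of the slide held 2 LPR mice only. Ighv6-5, at 0.02, was -0.069 with normexp and -0.019 to 0.063 without 1 mouse. Using another Ighm probe as the reference, an alternative chosen after seeing the data, turned no isotype difference. The cause of these shifts was not tested. The replicate numbers do not pair the mice (correlations of same-numbered arrays 0.115, 0.02 and 0.005). With the replicate block 92 members were higher and the median stayed at 5.14, 91 of them shared with the fit without it, and Ighe passed. Another scaling moved the share of higher among all calls of the array from 51.4% to 58.9% (percentile over detected probes), and normexp to 36.0%.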

Other observations

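In the same interval of chromosome 12 lay 19 probes whose annotation names no immunoglobulin in the form used to choose the members. Of these, 8 were bright enough to test, and 3 rose in LPR mice. M12376 (chr12:116861356-116861415) read -1.53, -0.28 and -0.35 in MRL mice and 4.47, 5.62 and 4.57 in LPR mice, a log2 change of 5.61 (SE 0.43, adjusted p = 0.000292 in limma). NAP059589-1 (chr12:117247846-117247905) changed by 5.55 (SE 0.30, adjusted p = 6.52e-05 in limma). X67190, whose 60 bases span chr12:116175627-116175767, was well above background in LPR mice only and at least 17.0-fold higher. The 5 others that were tested, among them Adam6b (-0.15, SE 0.18) and both probes of Gm30948 (-0.26 and -0.21), did not pass.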
